A study of Homo sapiens with 21 samples.

Results

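The transcripts described here are those of the NRF2 antioxidant and glutathione system, a list of 36 genes that comprises NRF2 itself (NFE2L2), its inhibitor KEAP1 and genes of quinone reduction, iron handling, glutathione and thioredoxin metabolism, NADPH supply, peroxide removal and conjugate export. They were measured in 7 groups of 3 PrimeView arrays, 21 in all, hybridised with RNA of SH-SY5Y, a neuroblastoma cell line of human origin that can be turned into neuron-like cells. A member was represented by the probe set annotated to its symbol alone with the highest mean over all arrays. This gave 33 members among 18132 genes. All 4 probe sets of SOD2 also carry the symbol of an overlapping transcript, so that the rule leaves it out, and FTH1 and AKR1B1 were not analysed here. Every culture first received BDNF, a neurotrophin, at 50 ng/mL beside 10 µM of retinoic acid over 3 to 4 days of differentiation, and was then kept for 72 h in 0.1% DMSO with or without a compound. The APP cells carried the V717F mutation in amyloid precursor protein, a mutation of inherited Alzheimer disease, and received AG494 (APP_AG494), NOSCA (APP_NOSCA) or vehicle alone (APP_DMSO). The WT cells were wild type and received PALBO (WT_PALBO), AG494 (WT_AG494), NOSCA (WT_NOSCA) or vehicle alone (WT_DMSO). AG494 is a tyrphostin that blocks the kinase of the EGF receptor. NOSCA and PALBO are named here as in the labels, and their doses are not given in the sources used here. The mutated cells were 1 line, and the labels do not say how it was made or whether it is a clone, so that the mutation and other differences between the lines cannot be told apart. The array does not read a point mutation, and the APP transcript itself was lower in APP_DMSO than in WT_DMSO by a log2 fold change of -0.28 (adjusted p = 0.041 in limma), with differences of -0.15 under AG494 (adjusted p = 0.36) and -0.04 under NOSCA (adjusted p = 0.85) that were not called.

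NRF2 is a transcription factor that KEAP1, the adaptor of a ubiquitin ligase, marks for destruction in unstressed cells. Oxidants and electrophiles modify KEAP1, NRF2 then accumulates and, with a small MAF protein, binds antioxidant response elements of its target genes. Its activity is set largely at the level of the protein, so that the level of the NFE2L2 transcript is not a measure of it. In nerve cells the pathway is known for defence against oxidative damage, for the supply of reducing power through NADPH and for the synthesis of glutathione.

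The core of the antioxidant response element, TGACNNNGC, was searched on both strands of the 250 bases before the start of each gene in RefSeq promoters (GRCh38.p14). Of 25 measured members with a promoter in that table, 6 held a match, namely GCLM, GPX2, GSTP1, ME1, PGD and TXNRD1, which is 24.0% against 11.0% of all 27305 promoters. ME1 (chr6:83431052-83431301, minus strand) and PGD (chr1:10398814-10399063, plus strand) are printed as the members with a match that were called in a comparison, with the match in capitals. It lies 137 to 129 bases before the start of ME1 on the strand of the gene. In PGD it lies 201 to 193 bases before the start on the opposite strand. NQO1 (chr16:69726561-69726810, minus strand) and PIR (chrX:15493334-15493583, minus strand) are printed as the members with the largest rises under AG494 in APP cells; their windows hold no match, which says only that these letters are not in these bases.
ME1: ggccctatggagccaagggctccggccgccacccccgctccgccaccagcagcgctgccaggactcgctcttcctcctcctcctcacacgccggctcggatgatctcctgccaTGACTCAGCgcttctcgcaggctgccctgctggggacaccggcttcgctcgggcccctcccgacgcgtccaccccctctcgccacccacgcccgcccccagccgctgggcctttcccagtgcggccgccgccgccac
PGD: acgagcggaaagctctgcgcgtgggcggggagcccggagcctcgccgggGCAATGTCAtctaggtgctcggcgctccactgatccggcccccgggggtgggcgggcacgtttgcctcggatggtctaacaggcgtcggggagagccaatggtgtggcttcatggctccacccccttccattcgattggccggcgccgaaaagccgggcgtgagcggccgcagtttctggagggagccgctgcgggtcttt
NQO1: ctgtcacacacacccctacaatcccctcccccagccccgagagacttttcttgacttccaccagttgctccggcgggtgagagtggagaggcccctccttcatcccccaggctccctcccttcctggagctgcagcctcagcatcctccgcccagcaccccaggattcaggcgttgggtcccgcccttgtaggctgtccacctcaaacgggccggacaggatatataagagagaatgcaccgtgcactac
PIR: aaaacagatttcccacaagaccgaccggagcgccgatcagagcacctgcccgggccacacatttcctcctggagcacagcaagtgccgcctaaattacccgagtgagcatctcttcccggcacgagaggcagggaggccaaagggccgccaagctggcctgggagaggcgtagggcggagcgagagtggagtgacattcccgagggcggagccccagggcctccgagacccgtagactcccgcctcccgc

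The medians of the 21 arrays ran from 7.88 to 8.03 (log2), and with 3 arrays a group the precision is limited by their number. Values are log2 intensities normalised by RMA. They carry no detection call. Probe sets differ in how strongly they bind, so that a low value on this scale is no measure of absence, nor of a lower level than that of another gene. In bulk cells, fewer cells of a type and less RNA per cell cannot be told apart. The 7 noradrenergic markers of the line, such as DBH and PHOX2A, had medians over the arrays of 8.15 (TH) to 13.22. Of 5 immune markers, PTPRC, CD3E, CD14 and LYZ had medians of 4.9 to 6.25 and CD68 one of 8.05. The medians of 2 Schwann cell markers were 7.2 and 7.73, and those of 5 fibroblast markers ran from 5.83 to 12.6 (TWIST1). The values of these lists overlapped, so that they do not identify the cells. Differences were tested with limma over all 18132 genes in 1 fit of all arrays. A gene is called where its adjusted p (Benjamini-Hochberg) was under 0.05. Where arrays are said not to overlap between groups, the share of all genes without overlap is not given, so that this describes the values and is no test. The title numbers of the arrays form 3 runs with 1 array of each group, and the arrays of a run deviated together, so that a fit with the run as a block is given where it changes a call.

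In the fit without the block, 11 of the 33 members were called in at least 1 of 8 comparisons of genotype or of a compound with vehicle. The other 22 were called in none. NQO1 had the widest span of group means, 2.17 on the log2 scale, followed by AKR1C1 at 1.34, SLC7A11 at 0.83, PIR at 0.63 and ME1 at 0.61. At the other end SOD1 spanned 0.04, PRDX1 and TXN 0.09 each and GSTP1 0.1, close to their SD within groups of 0.05 to 0.09. Over the 33 members the median log2 fold change stayed between -0.022 and 0.064 in all 8 comparisons, against -0.006 to 0.024 over all genes.

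**Figure D1:**
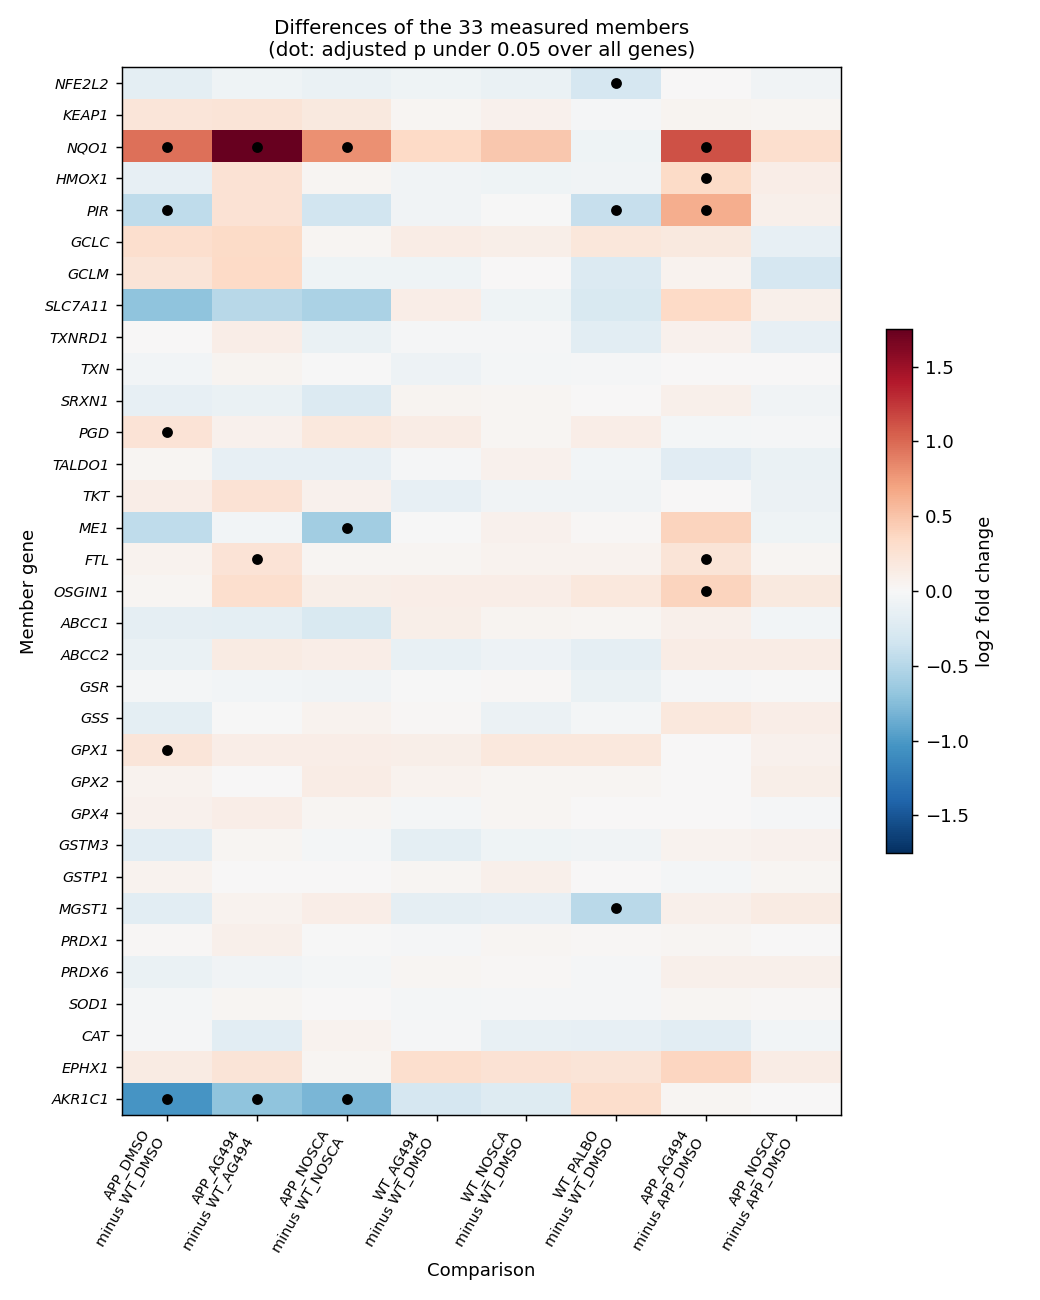
Log2 fold changes (colour) of the 33 measured members (rows) in 8 comparisons (columns), with a dot where the adjusted p over all genes was under 0.05. NQO1 carries a dot in 4 columns and AKR1C1 in the 3 columns of genotype, while most rows are pale throughout.

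Of the regulators, NFE2L2 fell under PALBO in WT cells and KEAP1 was called in no comparison of the fit without the block. NFE2L2 was at 10.4, 10.43 and 10.43 in APP_AG494, at 10.38, 10.34 and 10.34 in APP_NOSCA and at 10.43, 10.35 and 10.46 in APP_DMSO. In WT cells it was at 10.33, 10.25 and 10.28 in WT_PALBO, at 10.58, 10.41 and 10.51 in WT_AG494, at 10.54, 10.48 and 10.36 in WT_NOSCA and at 10.63, 10.64 and 10.47 in WT_DMSO. All 3 WT_PALBO arrays lay below all WT_DMSO arrays, and the log2 difference was -0.29 with an SE of 0.07 (adjusted p = 0.01 in limma). Its other probe set differed by -0.12, and the call was lost with the mean of both (adjusted p = 0.28), with only the groups compared in the fit (0.13) and without WT_DMSO replicate 1 or 2 (adjusted p up to 0.052). Between APP_DMSO and WT_DMSO NFE2L2 differed by -0.17 (95% confidence interval -0.31 to -0.03, adjusted p = 0.15). KEAP1 was at 11.37, 11.5 and 11.22 in APP_DMSO against 11.03, 11.22 and 11.21 in WT_DMSO. The lowest APP_DMSO array and the highest WT_DMSO array were equal after rounding, and the differences within the runs were 0.34, 0.28 and 0.02. The difference in the fit was 0.21 (SE 0.08, adjusted p = 0.14). It passed with the run as a block (adjusted p = 0.029), as it did between APP_AG494 and WT_AG494 (0.23, adjusted p = 0.11, and 0.02 with the block).

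NQO1, which reduces quinones by 2 electrons and is a classical NRF2 target, was higher in the mutated line and rose further in it under AG494. It was at 10.83, 10.88 and 11.13 in APP_AG494, at 10.12, 10.1 and 10.16 in APP_NOSCA and at 9.82, 9.98 and 9.68 in APP_DMSO. In WT cells it was at 8.75, 8.87 and 8.71 in WT_PALBO, at 9.1, 9.35 and 9.18 in WT_AG494, at 9.39, 9.34 and 9.25 in WT_NOSCA and at 8.77, 9.08 and 8.73 in WT_DMSO. Every APP array was above every WT array, and the 3 APP_AG494 arrays were the highest of all. In group means the order was APP_AG494, APP_NOSCA, APP_DMSO, WT_NOSCA, WT_AG494, WT_DMSO and WT_PALBO. Among neighbours in this order, WT_NOSCA and WT_AG494 overlapped and so did WT_DMSO and WT_PALBO, and the difference between APP_NOSCA and APP_DMSO did not pass the test.

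The genotype difference of NQO1 under vehicle was 0.97 (SE 0.1, adjusted p = 2.9e-06), a fold of 1.96. Under AG494 it was 1.74 (SE 0.1, adjusted p = 1.6e-09), a fold of 3.34, and under NOSCA 0.8 (SE 0.1, adjusted p = 3.7e-05). AG494 raised NQO1 in APP cells by 1.12 (SE 0.1, adjusted p = 6.6e-06), a fold of 2.18, with differences of 1.01, 0.9 and 1.46 within the 3 runs. In WT cells the same comparison gave 0.35 (SE 0.1, 95% confidence interval 0.13 to 0.56, adjusted p = 0.21), with no overlap between the groups. The AG494 response in APP cells exceeded that in WT cells by 0.77 (SE 0.15, 95% confidence interval 0.47 to 1.08). This difference had an adjusted p of 0.069, and it passed with the run as a block (adjusted p = 0.0097). Of the members, none was called for this difference without the block, where NQO1, PIR and HMOX1 had an unadjusted p under 0.05 and 0.0386% of all genes were called, and 2 with it, NQO1 and PIR, where 1.26% were. The 2 probe sets of NQO1 gave 1.12 and 1.14 under AG494 in APP cells but 0.35 and 0.08 in WT cells, and 0.77 and 1.06 for the difference of the responses.

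NQO1 under NOSCA also lay above vehicle without passing the test. The difference was 0.47 in WT cells (95% confidence interval 0.25 to 0.68, adjusted p = 0.16), where the arrays did not overlap and the block gave an adjusted p of 0.04. In APP cells it was 0.3 (95% confidence interval 0.08 to 0.51, adjusted p = 0.81). Under PALBO it was -0.08 (95% confidence interval -0.3 to 0.13).

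**Figure D2:**
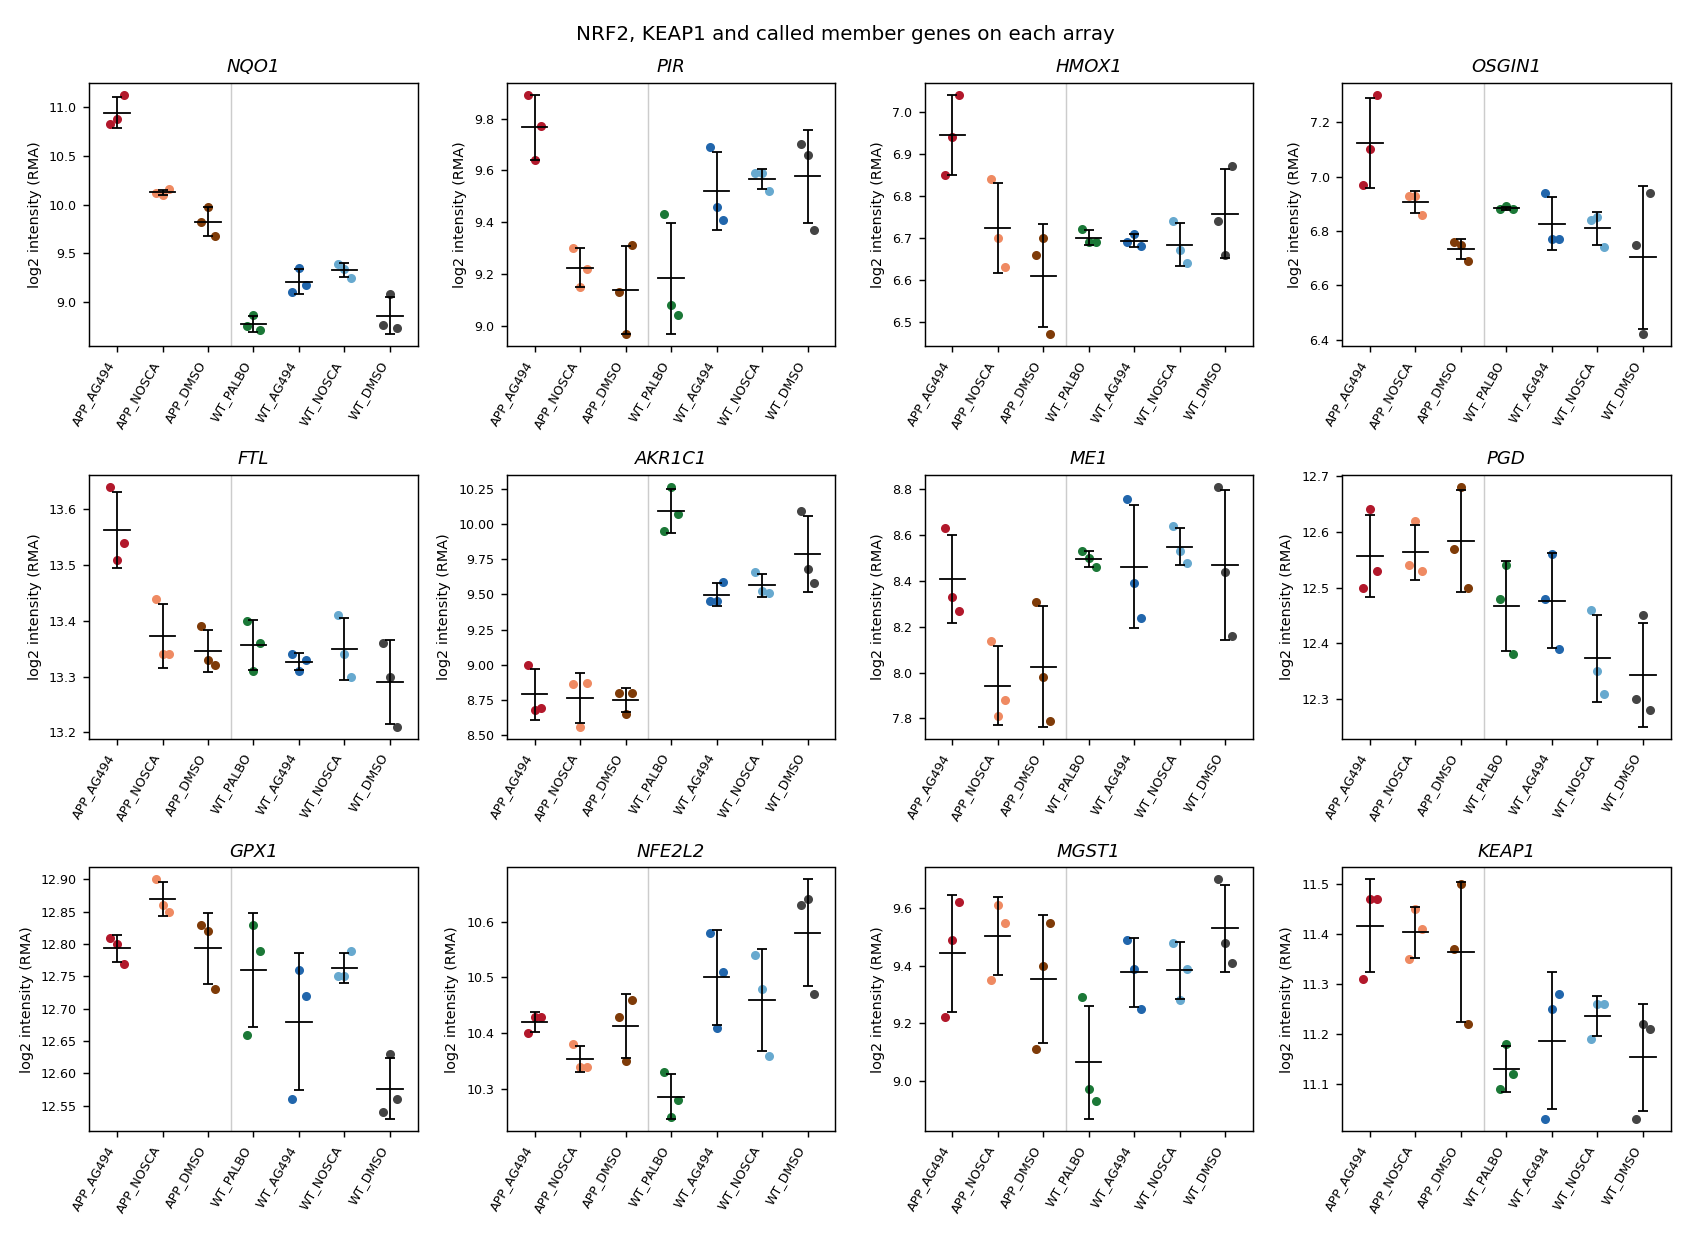
Log2 intensity (RMA) of NFE2L2, KEAP1 and the 10 other members called in a comparison with vehicle or between genotypes, for each of the 3 arrays of a group (points), with the group mean (wide line) and SD (bars); axes do not start at 0. The NQO1 points of the 3 APP groups lie above all WT points, and those of AKR1C1 below them.

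AG494 in APP cells raised 5 members and lowered none. They were NQO1, PIR, HMOX1, OSGIN1 and FTL, 15.2% of the 33 members, while 4.75% of all genes were called, 1.99% as higher and 2.76% as lower. The replicate block called 7 members higher, adding ME1 (0.39, adjusted p = 0.0083) and EPHX1 (0.38, adjusted p = 0.0093), and 1 lower, the pentose phosphate enzyme TALDO1 (-0.2, adjusted p = 0.05 after rounding). It called 11.8% of all genes. Of the 33 members 27 had a value above 0, or 81.8%, against 48.1% of all genes.

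PIR encodes pirin, an iron-binding nuclear protein. It was at 9.89, 9.64 and 9.77 in APP_AG494 and at 9.13, 8.97 and 9.31 in APP_DMSO, a rise of 0.63 (SE 0.12, adjusted p = 0.003). The groups did not overlap, and the differences within the runs were 0.76, 0.66 and 0.46. In WT cells PIR was at 9.69, 9.46 and 9.41 in WT_AG494 against 9.7, 9.66 and 9.37 in WT_DMSO, a difference of -0.06. The response in APP cells exceeded that in WT cells by 0.69 (SE 0.16, 95% confidence interval 0.34 to 1.03), with an adjusted p of 0.15, and of 0.02 with the block.

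HMOX1, the haem-degrading oxygenase, was at 6.85, 6.94 and 7.04 in APP_AG494 and at 6.66, 6.7 and 6.47 in APP_DMSO. It rose by 0.33 (SE 0.08, adjusted p = 0.015), and its 3 probe sets differed by 0.25 to 0.6. OSGIN1, an oxidative stress induced growth inhibitor, was at 6.97, 7.1 and 7.3 in APP_AG494 and at 6.76, 6.75 and 6.69 in APP_DMSO, a rise of 0.39 (SE 0.1, adjusted p = 0.034). FTL, the light chain of the iron store ferritin, was at 13.64, 13.51 and 13.54 in APP_AG494 and at 13.39, 13.33 and 13.32 in APP_DMSO. It rose by 0.22 (SE 0.06, adjusted p = 0.046), and all 8 of its probe sets were higher, by 0.2 to 0.28. The arrays of HMOX1, OSGIN1 and FTL did not overlap between these groups. FTL has many processed pseudogenes, so that its probe sets may also read their transcripts.

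Single arrays decided the calls of the last 3 genes. The HMOX1 call was lost without APP_AG494 replicate 2 or 3 or APP_DMSO replicate 3, that of FTL without any 1 of the 6 arrays (adjusted p 0.068 to 0.16) and that of OSGIN1 without any 1 but APP_AG494 replicate 1. The calls of NQO1 (adjusted p up to 9.2e-05) and PIR (up to 0.02) held without each single array. Without 1 array the count of called members lay between 2 and 4. CD68, 1 of 5 immune markers, rose with these genes by 0.52 (adjusted p = 0.0024) and is also a lysosomal protein of other cells. Its part in the member differences was not tested. The mean of the 5 immune markers ranged from 5.96 to 6.01 in APP_AG494 and from 5.91 to 5.98 in APP_DMSO, and PTPRC and LYZ stayed at 5.18 or below on every array.

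Genes of glutathione synthesis and of thioredoxin reduction were not called under AG494 in APP cells. GCLC, the catalytic subunit of the rate-limiting ligase of glutathione synthesis, differed by 0.17 (95% confidence interval -0.23 to 0.56) and its modifier subunit GCLM by 0.06 (-0.22 to 0.33). SLC7A11, the cystine importer, differed by 0.35 (-0.12 to 0.81) with no overlap, TXNRD1, thioredoxin reductase, by 0.08 (-0.14 to 0.3) and SRXN1, sulfiredoxin, by 0.09 (-0.09 to 0.27). These intervals leave room for rises up to the bounds given.

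**Figure D3:**
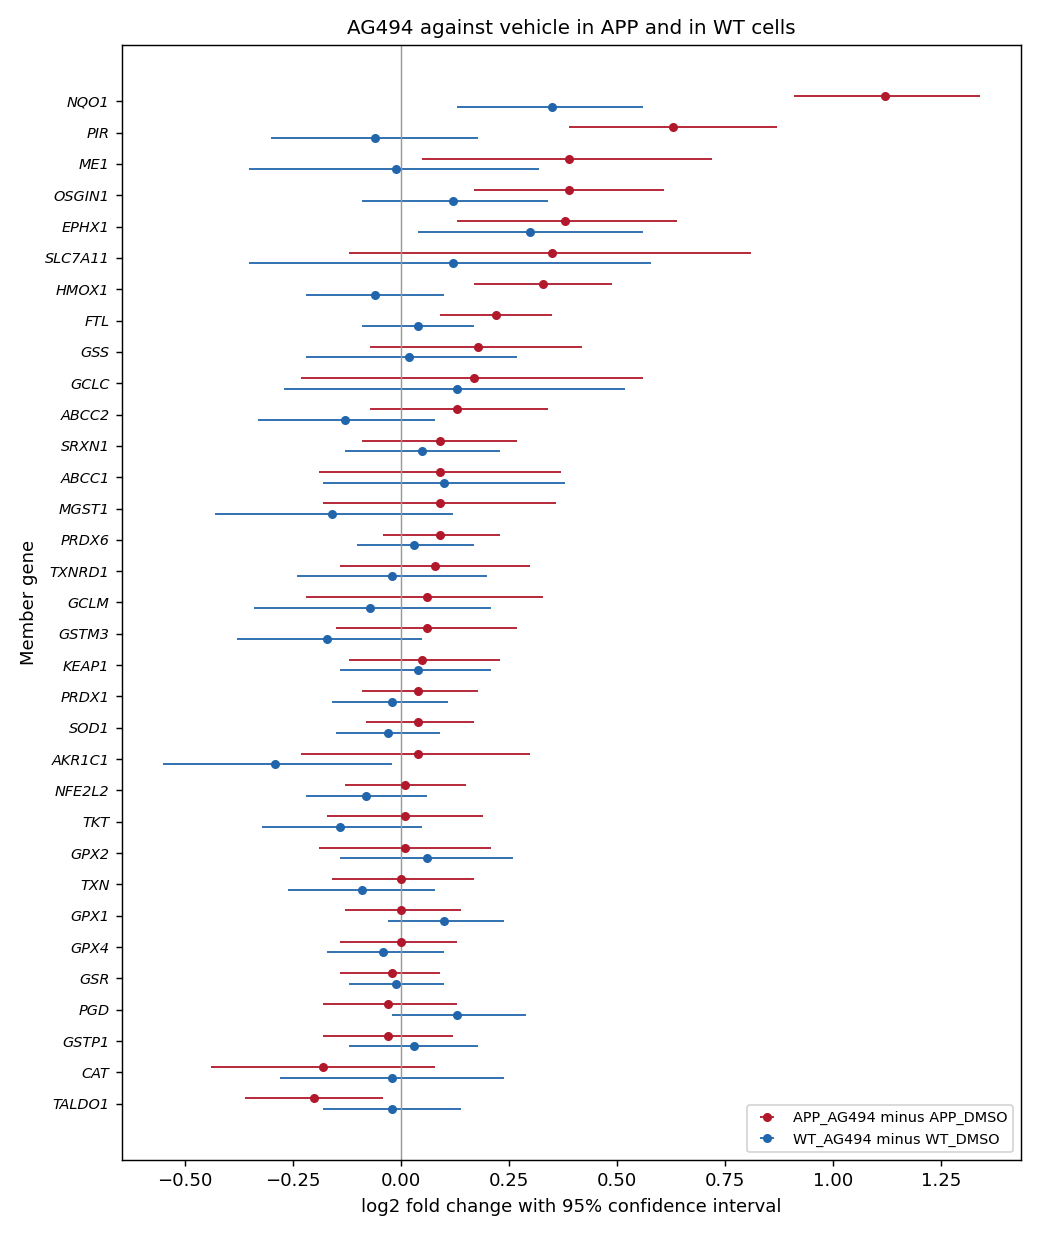
Log2 fold change under AG494 against vehicle (horizontal axis, points) with the 95% confidence interval of the fit (lines) for the 33 members, in APP cells and in WT cells, ordered by the value in APP cells. NQO1 at 1.12 and PIR at 0.63 stand at the top in APP cells, against 0.35 and -0.06 in WT cells.

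In WT cells limma called no member under AG494, 3 members had an unadjusted p under 0.05 (NQO1, EPHX1 and AKR1C1), and the block also called none. Of all genes 0.254% were called here, and 1.97% with the block. The 95% confidence intervals of 28 of the 33 members lay within 0.5 log2 units of 0 on either side. EPHX1, the microsomal epoxide hydrolase, was at 9.71, 9.99 and 10.1 in WT_AG494 and at 9.42, 9.8 and 9.68 in WT_DMSO, a difference of 0.3 (95% confidence interval 0.04 to 0.56, adjusted p = 0.49).

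Between the genotypes under vehicle, 3 members were higher and 2 lower in APP cells, 15.2% of the members against 9.25% of all genes, of which 5.2% were higher and 4.05% lower. This split turned with the scaling: after quantile normalisation again and after centring on array medians 1 member was higher and 3 were lower, NQO1 against PIR, SLC7A11 and AKR1C1, and the share of higher calls among all called genes was 47.1% and 41.7%, against 56.2% without them. NQO1, PGD and GPX1 were higher, and AKR1C1 and PIR were lower. The replicate block called 8 members, adding KEAP1 as higher and SLC7A11 (-0.71, adjusted p = 0.018) and ME1 (-0.45, adjusted p = 0.0017) as lower, and 17.4% of all genes. The 33 members were split, with 16 above and 17 below 0 and a median of -0.02, against 0.022 over all genes.

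AKR1C1, an aldo-keto reductase that reduces steroids and reactive carbonyls, was lower in APP cells under each treatment that both genotypes received. It was at 8.8, 8.65 and 8.8 in APP_DMSO and at 10.09, 9.68 and 9.58 in WT_DMSO, a difference of -1.03 (SE 0.13, adjusted p = 1.6e-05), or a fold of 0.489. Under AG494 it was at 9, 8.68 and 8.69 in APP cells against 9.45, 9.45 and 9.59 in WT cells, a change of -0.71 (SE 0.13, adjusted p = 0.00092). Under NOSCA it was at 8.86, 8.56 and 8.87 in APP cells against 9.66, 9.52 and 9.51 in WT cells, a change of -0.8 (SE 0.13, adjusted p = 0.00032). The 9 APP arrays did not overlap with the 12 WT arrays. NQO1 and AKR1C1, both known NRF2 targets in human cells, thus differed between the lines in opposite directions. AKR1C1 is nearly identical in sequence to AKR1C2, so that probe sets of each may read the other.

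PIR was at 9.13, 8.97 and 9.31 in APP_DMSO and at 9.7, 9.66 and 9.37 in WT_DMSO, a difference of -0.44 (SE 0.12, adjusted p = 0.021). The difference was -0.57 and -0.68 in the first 2 runs and -0.06 in the third, and the call was lost without replicate 1 or 2 of either group. The genotype difference and the AG494 response of PIR share the APP_DMSO arrays. Between APP_AG494 and WT_AG494 PIR differed by 0.25, without passing the test. PGD, which makes NADPH in the pentose phosphate pathway, was at 12.57, 12.68 and 12.5 in APP_DMSO and at 12.3, 12.45 and 12.28 in WT_DMSO, a difference of 0.24 (SE 0.07, adjusted p = 0.049). GPX1, the main cytosolic glutathione peroxidase, was at 12.83, 12.82 and 12.73 in APP_DMSO and at 12.54, 12.63 and 12.56 in WT_DMSO, a difference of 0.21 (SE 0.06, adjusted p = 0.044). PGD and GPX1 lost their calls after quantile normalisation again and after centring on array medians, with adjusted p up to 0.24 and 0.23 over all alternatives. Leaving out WT_DMSO replicate 1 or 3 or APP_DMSO replicate 1 or 2 ended the call of PGD, and leaving out any array but APP_DMSO replicate 3 that of GPX1.

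ME1, the malic enzyme that yields NADPH in the cytosol, was at 8.14, 7.81 and 7.88 in APP_NOSCA and at 8.64, 8.53 and 8.48 in WT_NOSCA. It was lower in APP cells there, with a difference of -0.61 (SE 0.16, adjusted p = 0.025), with no overlap, but the mean of its 2 probe sets was not called (adjusted p = 0.11), nor was it without APP_NOSCA replicate 2 or 3 or WT_NOSCA replicate 1 or 2. Under vehicle ME1 was at 8.31, 7.98 and 7.79 in APP_DMSO and at 8.81, 8.44 and 8.16 in WT_DMSO; these groups overlapped, and within the runs the difference was -0.51, -0.46 and -0.37. Under AG494 the genotypes differed by -0.05. SLC7A11 had low values in all groups, between 5.13 and 6.84 on single arrays. Its genotype difference under vehicle was -0.71 (SE 0.22, adjusted p = 0.051), and its 3 probe sets ranged from -0.71 to -0.05. They ranged from -0.48 to 0.12 under AG494 and from -0.55 to 0.11 under NOSCA.

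Under AG494 the genotypes differed in 3 members, NQO1 and FTL as higher in APP cells and AKR1C1 as lower, 9.09% of the members against 9.02% of all genes, of which 4.1% were higher and 4.92% lower. This share of members is close to that of all genes. FTL differed by 0.24 (SE 0.06, adjusted p = 0.017), and by 0.06 under vehicle. The FTL call was lost without APP_AG494 replicate 1 or WT_AG494 replicate 2. The block called 6 members here and 16.9% of all genes. It added KEAP1, HMOX1 (0.25, adjusted p = 0.028) and TKT (0.25, adjusted p = 0.0042), the transketolase of the pentose phosphate pathway, all higher. Of the 3 probe sets of TKT 2 were above 0 and 1 below, with values from -0.16 to 0.25. Under NOSCA the genotypes also differed in 3 members, NQO1, ME1 and AKR1C1, 9.09% against 7.2% of all genes, of which 3.56% were higher and 3.65% lower. The block called 6 members there, adding PGD (0.19, adjusted p = 0.021) as higher and PIR (-0.34, adjusted p = 0.021) and ABCC1 (-0.27, adjusted p = 0.022), a glutathione conjugate exporter, as lower, and 14.8% of all genes.

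Some markers of other cells differed between the genotypes as well. Under vehicle S100B was lower by a log2 fold change of -1.01 (adjusted p = 9.5e-05), 1 of 2 Schwann cell markers measured. Of 5 fibroblast markers, DCN was higher by 1.55 (adjusted p = 0.0078) and COL1A1 lower, with a difference of -1.19 (adjusted p = 1.9e-07). DBH, 1 of 7 noradrenergic markers, differed by -0.31 (adjusted p = 0.0046), and none of 5 immune markers was called. Under AG494 the called markers were CD68 at 0.45 (adjusted p = 0.0033), S100B at -0.77 (adjusted p = 0.0015) and COL1A1 at -0.92 (adjusted p = 5.6e-06). Under NOSCA they were S100B at -1.2, DCN at 1.28, COL1A1 at -1 and DBH at -0.22 (adjusted p up to 0.049). Under vehicle the mean of the fibroblast markers ranged from 9.04 to 9.2 in APP_DMSO and from 8.95 to 9.33 in WT_DMSO, and that of the Schwann cell markers from 6.81 to 7.02 in APP_DMSO and from 7.41 to 7.57 in WT_DMSO. Their part in the member differences was not tested.

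PALBO in WT cells lowered 3 members and raised none, 9.09% of the members against 6.98% of all genes, of which 3.11% were higher and 3.87% lower. The 3 members were NFE2L2, PIR and MGST1, a microsomal glutathione transferase. With the block 4 members were called, 3 lower and 1 higher (GPX1), and 15.1% of all genes. MGST1 was at 9.29, 8.97 and 8.93 in WT_PALBO and at 9.7, 9.48 and 9.41 in WT_DMSO, a difference of -0.47 (SE 0.13, adjusted p = 0.032). The groups did not overlap, the runs differed by -0.41, -0.52 and -0.48, and the 3 probe sets by -0.47 to -0.45. PIR was at 9.43, 9.08 and 9.04 in WT_PALBO and at 9.7, 9.66 and 9.37 in WT_DMSO, a change of -0.4 (SE 0.12, adjusted p = 0.044), with 1 WT_PALBO array above the lowest WT_DMSO array. The calls of PIR and MGST1 were lost without replicate 2 or 3 of WT_PALBO or replicate 1 or 2 of WT_DMSO. Without WT_DMSO replicate 2 no member was called, and without WT_DMSO replicate 1 the 1 member called was higher, AKR1C1 (0.46, adjusted p = 0.028), and none was lower.

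AKR1C1 was at 9.95, 10.26 and 10.07 in WT_PALBO, where the differences from WT_DMSO were -0.14, 0.58 and 0.49 within the runs and 0.31 in the fit, which was not called. GPX1 differed by 0.18 (adjusted p = 0.11, and 0.044 with the block). S100B, 1 of 2 Schwann cell markers, rose under PALBO by 0.95 (adjusted p = 0.00039 in limma), while SOX10 differed by -0.09. COL1A1, 1 of 5 fibroblast markers, fell by 0.88 (adjusted p = 3.3e-05). The other fibroblast markers, DCN (0.49), LUM (-0.34), TWIST1 (-0.11) and COL1A2 (-0.03), were not called, nor was SOX10. ISL1, 1 of 7 noradrenergic markers, rose by 0.43 (adjusted p = 0.0036 in limma). The mean of the 2 Schwann cell markers was 7.73 to 8.05 in WT_PALBO against 7.41 to 7.57 in WT_DMSO. That of the 5 fibroblast markers was 8.83 to 9.15 in WT_PALBO against 8.95 to 9.33 in WT_DMSO. The part of these markers in the member differences was not tested.

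NOSCA called no member in limma in either genotype. In WT cells 2 members had an unadjusted p under 0.05, NQO1 and GPX1, and the block called NQO1 alone, where 0.0165% of all genes were called without the block and 0.419% with it. In APP cells 2 members, NQO1 and GCLM, had an unadjusted p under 0.05, the block called none, and 0% of all genes were called without it and 0.0276% with it. The 95% confidence intervals of the members under NOSCA reached from -0.54 to 0.68 in WT cells and from -0.56 to 0.55 in APP cells. No member was called in limma for a difference of the NOSCA response between genotypes (0% of all genes, and 0.0165% with the block), none had an unadjusted p under 0.05 and none was called with the block.

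The compounds were also set against each other within a genotype, at doses that are not known. In APP cells NQO1 was higher under AG494 than under NOSCA by 0.83 (SE 0.1, adjusted p = 0.00035) and PIR by 0.54 (SE 0.12, adjusted p = 0.019), 6.06% of the members against 1.56% of all genes, of which 0.822% were higher and 0.739% lower. The block called 4 members and 5.61% of all genes. The PIR call here was lost without APP_AG494 replicate 1 or 3 or APP_NOSCA replicate 2 or 3. In WT cells NQO1 was lower under PALBO than under NOSCA with a difference of -0.55 (SE 0.1, adjusted p = 0.0044) and than under AG494 by -0.43 (SE 0.1, adjusted p = 0.024). AKR1C1 was higher under PALBO than under NOSCA by 0.53 (adjusted p = 0.023) and than under AG494 by 0.6 (adjusted p = 0.01). These are 2 members in each comparison, 6.06%. Against NOSCA 3.23% of all genes were called, 1.13% higher and 2.1% lower, and with the block 3 members and 7.23% of all genes. Against AG494 3.25% of all genes were called, 1.2% higher and 2.05% lower, and with the block 4 members and 8.7% of all genes. Without 1 array the count lay between 1 and 3 against NOSCA and between 0 and 2 against AG494, where it was 0 without WT_AG494 replicate 2. The count of 1 against NOSCA came without replicate 2 or 3 of either group, and that of 1 against AG494 without WT_AG494 replicate 1 or 3 or WT_PALBO replicate 2 or 3. Against AG494 the NQO1 call was lost without WT_PALBO replicate 1 or 3 or WT_AG494 replicate 2 or 3, and the AKR1C1 call without WT_AG494 replicate 1 or 2 or WT_PALBO replicate 2. Without WT_PALBO replicate 1 PIR was called instead of NQO1 (-0.46, adjusted p = 0.041). Against NOSCA the AKR1C1 call was lost without replicate 2 or 3 of either group, and that of NQO1 held without each single array. AG494 and NOSCA in WT cells differed in no member by limma, with or without the block, and none had an unadjusted p under 0.05; 0.011% of all genes were called, and 0.0331% with the block. The outermost differences of the 33 members were -0.12 and 0.19, with intervals between -0.43 and 0.66.

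The other 22 members were called in none of the 8 comparisons in the fit without the block. With the block KEAP1, SLC7A11, EPHX1, TALDO1, TKT and ABCC1 among them were each called in at least 1. SOD1, which turns superoxide into hydrogen peroxide, stayed between 13.69 and 13.84 on all arrays. Among the enzymes that remove peroxides, PRDX1 stayed between 12.38 and 12.55, PRDX6 between 12.83 and 13.15, GPX4, which reduces lipid peroxides, between 12.39 and 12.65 and CAT, catalase, between 9.22 and 9.7. GSR, which regenerates glutathione, ran from 10.93 to 11.17 and GSS, the second enzyme of its synthesis, from 10.39 to 10.94. Arrays of GCLC ranged from 8.16 to 9.11, with a spread within groups (SD 0.25) that was large beside the span of its group means of 0.46. Replicate 1 was its highest array in each group but APP_DMSO, where replicate 3 was. GPX2 was at 5.58 or below on all arrays.

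A further list of 63 NRF2 and glutathione genes, 54 of them measured, was examined beside the members. It was chosen with earlier results of these data known, so that its shares are a description and no independent test. Under AG494 in APP cells 7 of the 54 were higher and none lower, where 4.75% of all genes were called, and with the block 10 were higher and 2 lower, 22.2% of the list against 11.8% of all genes. NQO2, a relative of NQO1, was at 10.23, 10.17 and 10.4 in APP_AG494 and at 9.77, 9.87 and 9.79 in APP_DMSO, a rise of 0.45 (SE 0.09, adjusted p = 0.0048). ABCC3, an exporter of conjugates, rose by 0.74 (SE 0.15, adjusted p = 0.0055), BLVRB, a biliverdin and flavin reductase, by 0.67 (SE 0.14, adjusted p = 0.0086) and the secreted peroxidase GPX3 by 0.44 (SE 0.09, adjusted p = 0.0048). These 4 genes were named for their low p in this comparison, so that it adds no support that their arrays did not overlap between the groups. In WT cells none of the 54 was called under AG494, 5 had an unadjusted p under 0.05, and the block called none. The medians of the list were 0.041 in APP cells and -0.018 in WT cells.

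Between the genotypes under vehicle 3 of the 54 were higher and 4 lower, where 9.25% of all genes were called. With the block 3 were higher and 7 lower, 18.5% of the list against 17.4% of all genes. AKR1C2 was lower, with a difference of -0.98 (SE 0.1, adjusted p = 2.2e-06) and GPX3 with one of -0.58 (SE 0.09, adjusted p = 0.00015). This difference of GPX3 and its AG494 response in APP cells share the APP_DMSO arrays. GPX8, a peroxidase of the endoplasmic reticulum, was higher by 0.96 (SE 0.13, adjusted p = 4.6e-05) and AIFM2, which protects membranes from lipid peroxidation by reducing coenzyme Q, by 0.68 (SE 0.1, adjusted p = 0.00015). Under AG494 the genotypes differed in 8 higher and 3 lower genes, 20.4% of the list against 9.02% of all genes. Among them were AIFM2 (1.04), GPX8 (1.08), the carbonyl reductase CBR3 (0.74) and AKR1C2 (-0.58). With the block 11 were higher and 5 lower there, 29.6% of the list against 16.9% of all genes. Under NOSCA 4 were higher and 3 lower, 13% of the list against 7.2% of all genes, with AIFM2 at 0.74, GPX8 at 0.84, AKR1C2 at -1.01 and AKR1C3 at -1.1. With the block 5 were higher and 6 lower under NOSCA, 20.4% of the list against 14.8% of all genes.

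AKR1C2 had the largest rise of the 54 genes under PALBO in WT cells. It was at 9.14, 9.28 and 9.22 in WT_PALBO and at 8.54, 8.3 and 8.16 in WT_DMSO, a rise of 0.88 (SE 0.1, adjusted p = 2.9e-05). AKR1C1, whose probe sets may also read AKR1C2, differed in the same direction, by 0.31 and 0.46 in its 2 probe sets, without a call. AKR1C3 was at 6.51, 6.18 and 6.32 in WT_PALBO and at 7.32, 6.6 and 6.01 in WT_DMSO, with overlap and no call. GGT5, a gamma-glutamyl transferase, rose by 0.62 (SE 0.17, adjusted p = 0.029), GSTK1, a mitochondrial and peroxisomal glutathione transferase, by 0.2 (SE 0.06, adjusted p = 0.045), and CBR3 fell by 0.64 (SE 0.16, adjusted p = 0.015). These were the 3 higher and 1 lower of the 54 genes under PALBO, 7.41% of the list, which is near the 6.98% of all genes called. With the block 5 were higher and 5 lower, 18.5% of the list against 15.1% of all genes. NOSCA called none of the 54 in limma in either genotype, with 1 in WT cells and 0 in APP cells at an unadjusted p under 0.05, and none with the block.

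**Figure D4:**
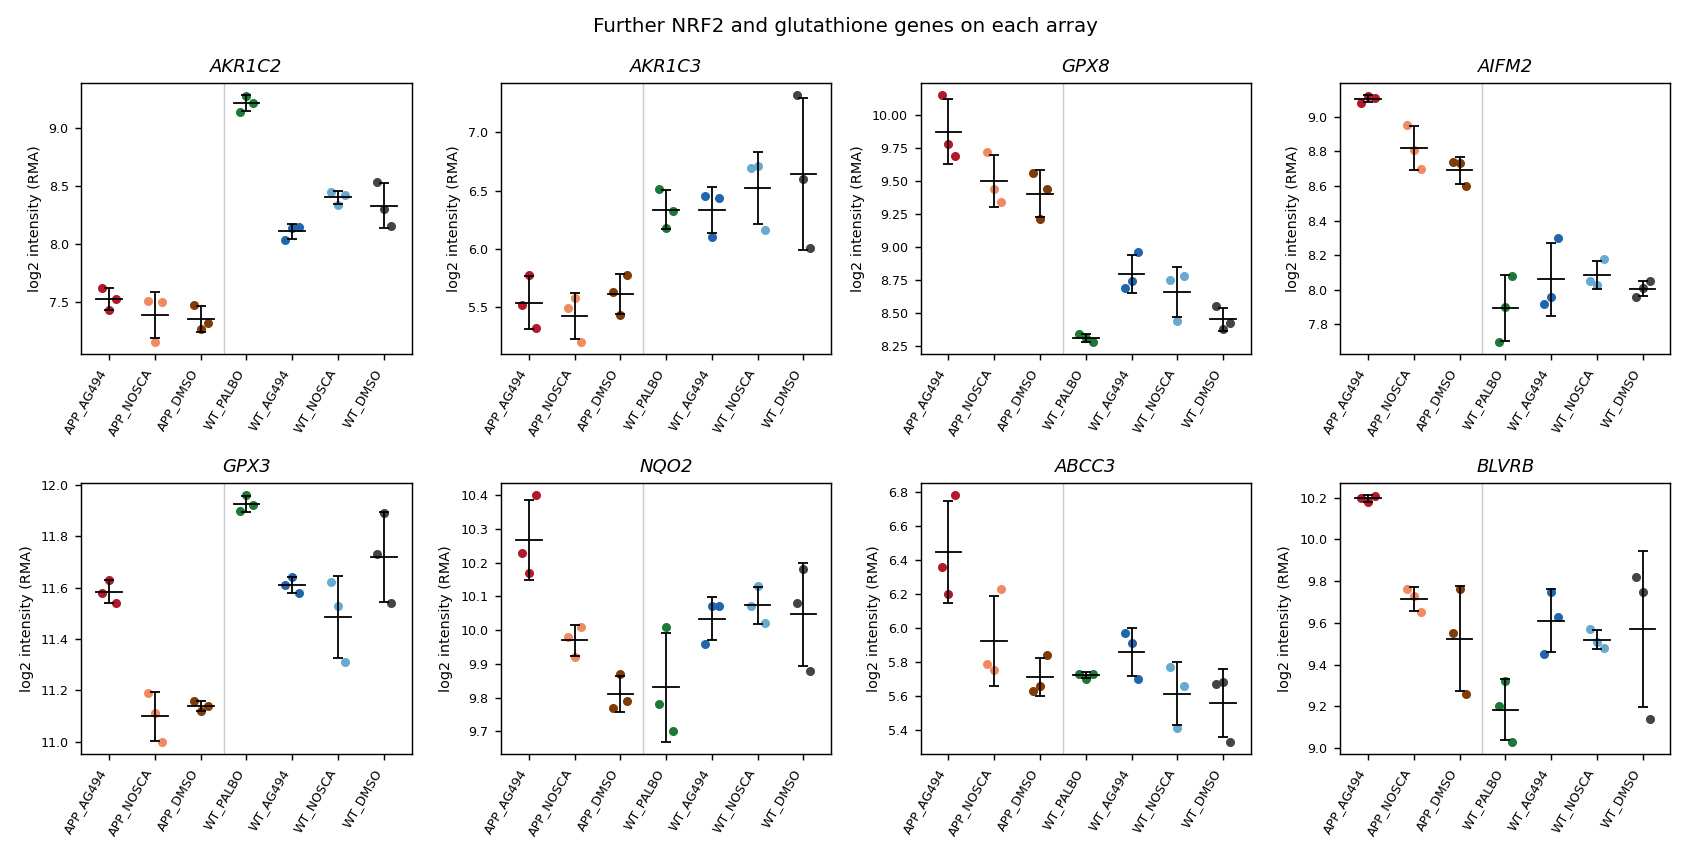
Log2 intensity (RMA) of 8 genes of the further list on each of the 3 arrays of a group (points), with the group mean (wide line) and SD (bars); axes do not start at 0. AKR1C2 is highest in WT_PALBO and low in all 3 APP groups, and GPX8 and AIFM2 are higher in all 3 APP groups than in the WT groups.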

How the data were processed

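RNA was hybridised to 21 PrimeView arrays, and the authors deposited RMA values on a log2 scale. The submitters' processing notes name RMA and affy; their versions are not given in the sources used here. Groups came from the label texts; replicates were numbered in accession order. The table held 49372 probe sets, of which 44988 had 1 symbol, 1832 had several and 2473 were not listed in the annotation of the platform. Members, lists and the rule for naming genes were chosen with earlier results of these data known. The rule named NFE2L2, KEAP1 and called members with values per array, and up to 4 called genes of the further list per comparison.

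All arrays entered 1 fit (lmFit and eBayes of limma 3.58.1, under R 4.3.3, with 14 residual and 4.27 prior degrees of freedom), with two-sided p-values adjusted by Benjamini and Hochberg within each of 14 comparisons. The fit was tested on simulated data with independent noise and no run effect, so that this does not test how the runs affect the calls. Title numbers form 3 runs of 7 arrays. Deviations from group means correlated by 0.226 to 0.685 within runs (63 pairs) and by -0.529 to 0.0889 between runs (126 pairs), so that the runs pair the arrays. The labels do not say that arrays of a group come from separate cultures beyond the 3 independent experiments of the series, so that p-values measure the spread between these arrays. No dim gene was filtered out, and no detection limit was computed. Alternatives were the replicate block, averaged probe sets per gene, the 12088 brightest genes alone, a repeated quantile normalisation, subtraction of each array's median, a robust prior with a trend, only the groups compared, and each array left out.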

Additional observations from a re-analysis of the deposited data

Results flagged for a closer look

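The response to AG494 differed between the genotypes for NQO1 and PIR in the fit with the run as a block. NQO1 responded more in APP cells by 0.77 on the log2 scale (adjusted p = 0.0097 with the block in limma), with a difference from vehicle above 0 in all 3 runs in each genotype. PIR responded more in APP cells by 0.69 (adjusted p = 0.02 with the block), with differences of 0.76, 0.66 and 0.46 in APP cells and of -0.01, -0.2 and 0.03 in WT cells. Without the block neither passed (adjusted p = 0.069 and 0.15), and HMOX1 was the 1 other member with an unadjusted p under 0.05. Groups of 3 arrays are too small for a test of single outlying arrays.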

How the results depend on the processing

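No member reversed direction with a call on either side under any alternative run here. With the replicate block 8 members were called between APP_DMSO and WT_DMSO, 6 between APP_AG494 and WT_AG494, 6 between APP_NOSCA and WT_NOSCA, 8 under AG494 in APP cells, 1 under NOSCA in WT cells, 4 between WT_PALBO and WT_AG494, 4 between APP_AG494 and APP_NOSCA and 2 for the AG494 response between genotypes; the block moved the other counts by 1.5 times or less. With only the groups compared in the fit, 2 were called between APP_DMSO and WT_DMSO, 2 under AG494 in APP cells, 0 under PALBO and 1 between WT_PALBO and WT_AG494, with fewer arrays to estimate the spread. The mean of probe sets gave 1 under NOSCA in WT cells, 4 between APP_AG494 and APP_NOSCA and 1 for the AG494 response between genotypes; the cause was not tested. With 1 array left out the counts ranged from 2 to 5 between APP_DMSO and WT_DMSO, from 2 to 4 between APP_AG494 and WT_AG494, from 2 to 3 between APP_NOSCA and WT_NOSCA, from 0 to 3 under PALBO, from 2 to 4 under AG494 in APP cells, from 0 to 2 between WT_PALBO and WT_AG494, from 1 to 3 between WT_PALBO and WT_NOSCA, from 1 to 2 between APP_AG494 and APP_NOSCA and from 0 to 2 for the AG494 response between genotypes; the other counts stayed at 0. Under AG494 in APP cells no array left out gave the full 5, and 2 remained without APP_DMSO replicate 3, APP_AG494 replicate 2 or APP_AG494 replicate 3. Over 14 comparisons of 33 members, 5842 values under alternatives kept direction and side of the threshold, 76 lost a call and 46 gained one. Another 410 changed sign without a call on either side, at most 0.19 in size in the main setting and 0.17 under the alternative. Between APP_DMSO and WT_DMSO both scalings called 1 member higher and 3 lower, and the share of higher calls over all genes was 47.1% after quantile normalisation again and 41.7% after centring, against 56.2%; for the AG494 response between genotypes it was 3 of 7 genes, and 5 of 9 after centring. The signal over background of members with low values, such as GPX2 and SLC7A11, was not measured.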
